A study of Mus musculus with 30 samples.

Results

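The genes described are 7 genes that tissue macrophages are known for: C1qa, C1qb and C1qc, which encode the 3 chains of complement C1q, Apoe, which encodes the lipid carrier apolipoprotein E, Cd68, a lysosomal glycoprotein of phagocytes, Mrc1, the mannose receptor CD206, and Adgre1, which encodes the F4/80 antigen. They were chosen by name, and all 7 of them were found among the 23013 gene rows of a Seq-Well single-cell RNA table, in which cells and barcoded beads had shared small wells. The table held 8282 barcodes in 30 libraries. These came from 8 male DBA1/J mice and covered 8 organs. Of the healthy animals, the 4 labelled H3, H4, H6 and H7 had been given buffer and scored 0 for arthritis. The 4 mice with collagen-induced arthritis (CIA) had been immunized with bovine type II collagen in complete adjuvant and boosted in incomplete adjuvant, and their scores were 8 in S1 and S2, 3 to 4 in S6 and 3 in S7. All organs had been made into cell suspensions, with lysis of red cells, and blood was a gradient preparation of mononuclear cells. For blood and for lymph node all 4 healthy mice were used, beside S2, S6 and S7 for blood and S1, S2 and S7 for lymph node. Joint came from H3 and S1, and lung, muscle, skin, spleen and thymus from H6 and S1, so that these 6 organs had 1 mouse per state and no replicates.

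Macrophages are the main source of C1q in the body, in contrast to most complement proteins, which come from the liver. The 3 chains assemble into one molecule that starts the classical complement pathway on antibody complexes and on dying cells. Apoe is made by many macrophages but also by other cells, including cells of skin. Cd68 is shared by macrophages, monocytes and osteoclasts, whereas Mrc1 marks subsets of resident macrophages. C1qa, C1qb and C1qc are neighbours on the minus strand of chromosome 4, where they span 18719 bases (GRCm38, chr4:136880126-136898844). Apoe lies on chromosome 7 (19696244 to 19701310, minus strand), Cd68 on chromosome 11 (69664213 to 69666170, minus strand), Mrc1 on chromosome 2 (14229414 to 14332023, plus strand) and Adgre1 on chromosome 17 (57358581 to 57483529, plus strand).

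The promoter sequences of C1qb and C1qc, from RefSeq on GRCm38, are shown as those of the C1q chains with an entry in the promoter table used here, in which C1qa had none. Each is the 250 bases before the start that this table uses, read 5′ to 3′ on the minus strand (chr4:136886201-136886450 and chr4:136892915-136893164). For C1qc that start lies inside the annotated gene, which runs to position 136892936, so the last bases of its window belong to the gene. Capitals mark matches on either strand to any of 6 short motifs.
C1qb: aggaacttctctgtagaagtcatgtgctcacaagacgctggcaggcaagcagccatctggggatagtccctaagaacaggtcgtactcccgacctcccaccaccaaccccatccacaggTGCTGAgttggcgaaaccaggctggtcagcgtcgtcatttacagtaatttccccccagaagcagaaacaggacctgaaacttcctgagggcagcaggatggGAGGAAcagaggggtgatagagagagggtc
C1qc: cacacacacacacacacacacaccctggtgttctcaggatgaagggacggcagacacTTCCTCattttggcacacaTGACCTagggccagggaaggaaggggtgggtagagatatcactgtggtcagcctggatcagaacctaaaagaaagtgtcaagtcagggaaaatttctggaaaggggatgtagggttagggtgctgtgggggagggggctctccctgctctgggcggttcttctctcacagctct
The motif of the myeloid factor PU.1 (GAGGAA) occurred once in each of them, and it occurred in 23.3% of 32851 mouse promoter windows of the same length. TGCTGA, a half-site of MAF factors, was found in C1qb and in 16.1% of all windows, and AGGTCA, a nuclear receptor half-site, was found in C1qc and in 14.0% of all windows. The AP-1 motif TGANTCA was not found in either window and was held by 6.75% of all windows. The TATA box motif TATAAA, held by 12.4%, and the STAT motif TTCNNNGAA, held by 7.02%, were not found in them either. These matches describe letters, not bound sites.

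The level of a gene is its summed signal scaled to a per-million total of the library (UPM, units on a per-million scale). The signal is the authors' UMI matrix after smoothing over similar cells of a library, so levels carry no counting interval, and shares of barcodes are descriptions. The libraries held 27 to 934 barcodes and 217494 to 7886790 units, and listed 2495 to 16460 genes above 0. The libraries differed in how low a gene could be and still be listed: genes with a highest value of 1 made up 5.25% to 58.1% of the genes listed. A value of 0 is therefore given as listed at 0. Titles of libraries end in 2CIA or CIA for reasons the labels do not give, and for every organ sampled from H6 and S1 alone the library of H6 ended in CIA and that of S1 in 2CIA, so that this suffix and the state cannot be told apart there. Fewer macrophages and less RNA per macrophage cannot be told apart in a summed level.

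At least 1 C1q chain was above 0 in 8 of 30 libraries, from joint, lung, muscle, spleen and skin, and all 3 chains were listed at 0 in every library of blood, lymph node and thymus. C1qa was above 0 in 5 libraries, C1qb in 7 and C1qc in 8, whereas Apoe was above 0 in 27, Cd68 in 17, Mrc1 in 10 and Adgre1 in 2.

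**Figure D1:**
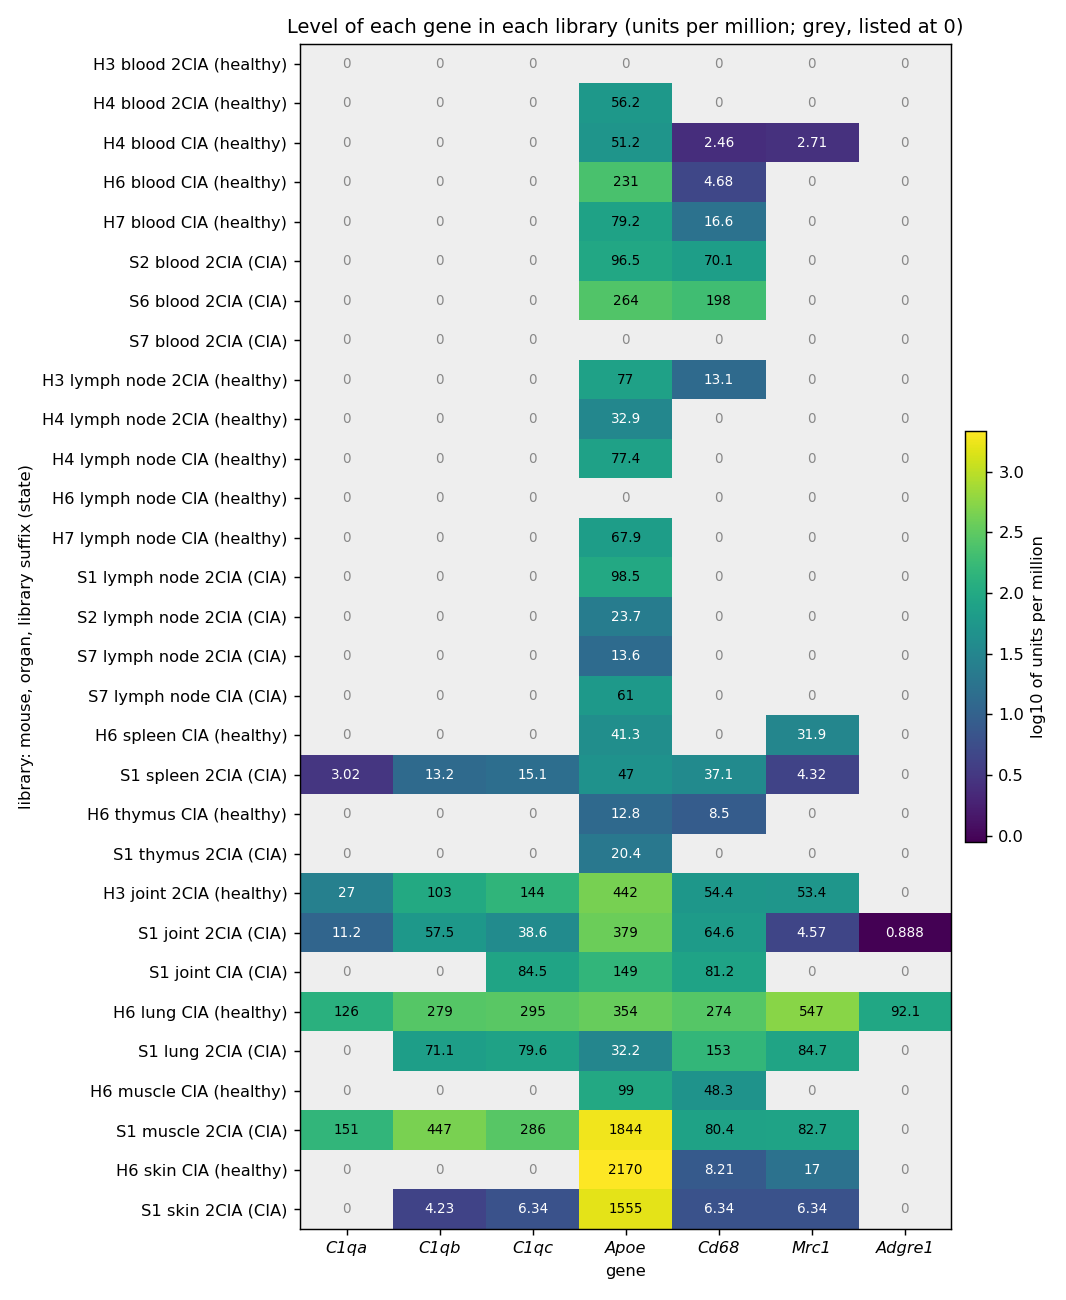
Level of the 7 genes (columns) in the 30 libraries (rows, by organ, with mouse, library suffix and state), in UPM, coloured on a log10 scale with grey for a gene listed at 0. C1q appears in 8 libraries, while Apoe appears in 27 and reaches 2169.7 UPM in healthy skin.

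In joint, all 3 chains were listed in both mice. C1qa was at 27.0 UPM in the healthy mouse H3 and at 10.4 in S1, C1qb at 102.7 and 53.5, and C1qc at 144.4 and 41.8. Each chain was lower in the joint of the arthritic mouse on this scale. Neutrophil markers summed to 62172 UPM in the joint of H3 and to 132982 and 86651 in the 2 joint libraries of S1, and their part in the C1q values was not tested. The 2 joint libraries of S1 were unlike each other: the larger, with 606 barcodes, held C1qa at 11.2, C1qb at 57.5 and C1qc at 38.6, and the smaller, with 70 barcodes, listed C1qc at 84.5 and the other two chains at 0. On the scale that was used for differences, the log2 of the trimmed-mean scaled level plus 10, C1qc differed by -1.05 between S1 and H3, C1qa by -0.49 and C1qb by -0.31. When each distinct profile was taken once, the differences of C1qa and C1qb turned to 0.30 and 0.77 and that of C1qc was -0.36.

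In lung, the healthy mouse H6 had C1qa at 125.6, C1qb at 278.5 and C1qc at 295.3 UPM. The arthritic mouse S1 had C1qa listed at 0, C1qb at 71.1 and C1qc at 79.6. In muscle the order of the states was the opposite: all 3 chains were listed at 0 in H6, and S1 had C1qa at 151.3, C1qb at 446.7 and C1qc at 286.0. Both the lung library of H6 and the muscle library of S1 were among those that listed many genes of low value, with 55.2% and 56.2% of their listed genes at a highest value of 1, against 16.9% in the lung of S1 and 21.3% in the muscle of H6. These libraries were also small, with 70 and 54 barcodes. By the number of barcodes the order in muscle was the opposite: genes found in under 10% of barcodes made up 0.0% of those listed in S1 and 15.4% of those in H6, and in lung they made up 3.00% in H6 and 0.655% in S1.

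Spleen and skin held little C1q. In the spleen of S1, C1qa was at 3.02, C1qb at 13.2 and C1qc at 15.1 UPM, and in the skin of S1 C1qb was at 4.23 and C1qc at 6.34 with C1qa at 0. All chains were listed at 0 in the spleen and skin of H6. The skin values rest on 12 barcodes of 150, which held 4 distinct profiles. Neutrophil markers summed to 4407 UPM in the spleen of H6 and 98019 in that of S1, monocyte markers to 2706 and 5900, and red cell markers to 519.2 and 91715. The part of these markers in the spleen values was not tested.

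Among the 5 libraries that listed all chains, C1qa made up 9.66% to 18.0% of the C1q units, C1qb 37.5% to 53.6% and C1qc 32.4% to 52.7%. C1qa was the lowest chain in each of these libraries. C1qb was above C1qc in the larger joint library and the muscle of S1. It was below C1qc in the joint of H3, the lung of H6 and the spleen of S1. The percentages are shares of smoothed units, in which 1 molecule can be added into several barcodes.

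Apoe was the most widespread of the 7 genes. By the mean over mice skin was highest, at 2169.7 UPM in H6 and 1555 in S1, and every barcode of both skin libraries listed it. In joint, Apoe was at 441.9 in H3 and 362.7 in S1, and the sign of the scaled difference depended on the scaling, at 0.30 after the trimmed mean and -0.28 per-million of the total. In muscle it was at 99.0 in H6 and 1844 in S1, a log2 difference of 3.59, and in lung it was at 353.9 in H6 and 32.2 in S1, a log2 difference of -3.30. Spleen (41.3 in H6 and 47.0 in S1) and thymus (12.8 and 20.4) were low in both states. Ordered by the mean over mice, Apoe fell from skin to muscle, joint, lung, blood, lymph node, spleen and thymus. The ranges over mice overlapped between neighbours in this order, except between joint and lung and between spleen and thymus, with 2 mice in each of these organs.

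The label of the muscle libraries was checked against 7 skeletal muscle markers. They summed to 72.9 UPM in the muscle library of H6, where 3 of 7 were listed, and to 4444 in that of S1, where all 7 were listed. Neutrophil markers summed to 105259 in the muscle of H6 and 18630 in the muscle of S1. Fibroblast markers summed to 527 in H6 and 12891 in S1. The muscle library of H6 thus held few markers of the labelled tissue. In lung, epithelial markers summed to 22155 in H6 and 2405 in S1, and neutrophil markers to 496 and 17471. Their part in the values of C1q and Apoe was not tested.

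Cd68 was listed in at least 1 mouse of every organ. In lung it was at 274.3 UPM in H6 and 153.3 in S1, in muscle at 48.3 and 80.4, and in joint at 54.4 in H3 and 65.7 in S1. The blood of S6, at 197.7, lay between the lung values, and the blood of S2, at 70.1, lay above both joint values. Spleen listed it at 0 in H6 and at 37.1 in S1, skin at 8.21 and 6.34, and thymus at 8.50 and 0. Cd68 thus did not follow Apoe into skin, where Apoe was at its highest.

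Mrc1 was highest in lung as well, at 546.5 UPM in H6 and 84.7 in S1. It was at 53.4 in the joint of H3 and 4.25 in that of S1, at 0 and 82.7 in muscle, at 17.0 and 6.34 in skin, and at 31.9 and 4.32 in spleen. Adgre1 was listed in the lung of H6, at 92.1 in 42 of 70 barcodes, and in 7 of 606 barcodes of a joint library of S1, at 0.89. It was listed at 0 in spleen, where red pulp macrophages are known to carry F4/80, so the level of Adgre1 in this table gives no measure of those cells.

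All 7 genes were lower in the lung of S1 than in that of H6. Of the 5 genes above 0 in both lung mice, 5 were at least 2-fold lower in S1, where 26.9% of all 5122 genes were lower by as much and 20.1% higher, and the other two were listed in H6 alone. Cd68 was at -1.01 on the log2 scale, next to the limit, at -0.80 when scaled to the total and at -0.90 with each distinct profile taken once. In joint, 2 of 6 were at least 2-fold lower (C1qc and Mrc1), against 9.83% of all genes, and 0 were higher, against 16.9%. This tally depended on how barcodes were counted. With each distinct profile taken once, C1qc was at -0.36 and Mrc1 at -0.77, both within 2-fold, and Cd68 was at least 2-fold higher, at 1.38 in place of 0.74. In muscle 1 of 2, Apoe, was at least 2-fold higher, against 24.7% of all genes higher and 29.6% lower, and 4 genes were listed in S1 alone. Cd68 in muscle was at 0.18, and at 1.32 with distinct profiles. In spleen 1 of 2, Mrc1, was lower, against 15.1% of all genes lower and 20.6% higher, and 4 genes were listed in S1 alone. Of the 3 genes above 0 in both mice in skin and the 1 in thymus, 0 passed 2-fold in either direction, where 11.6% and 9.88% of all genes were higher and 13.4% and 7.25% lower. In skin 2 further genes were listed in S1 alone, and in thymus Cd68 was listed in H6 alone. In skin, however, Cd68 and Mrc1 were both at -1.04 with distinct profiles, and Mrc1 was at -1.32 with a pseudocount of 1. With 1 mouse per state these are differences between libraries and have no replicate check.

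Blood and lymph node allowed tests over mice. In blood, Apoe was at 0, 52.1, 231.3 and 79.2 UPM in healthy H3, H4, H6 and H7, and at 96.5, 263.6 and 0 in the CIA mice S2, S6 and S7. The groups overlapped, with a mouse at 0 in each. The log2 difference, CIA minus healthy, was -0.30 ± 1.01 (SE, n = 3 and 4; 95% interval -2.35 to 1.75), with an adjusted p of 0.925 (limma), and 0.0625% of the 4802 genes tested were called at an adjusted p under 0.05. All 3 CIA blood libraries ended in 2CIA, and among libraries with that suffix the Apoe difference was 1.35 ± 1.61 (SE, adjusted p = 0.999, limma). Red cell markers summed to 35799 to 561335 UPM in the healthy and 58511 to 378686 in the CIA blood libraries, and their part was not tested. The median of all genes was at -0.63 in this comparison. Scaled to the total alone, the Apoe difference was 0.13 and the median of all genes -0.10.

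Cd68 in blood was at 0, 2.05, 4.68 and 16.6 UPM in H3, H4, H6 and H7, and at 70.1, 197.7 and 0 in S2, S6 and S7. S2 and S6 were above every healthy mouse and S7 was not. The mean was 5.83 in healthy and 89.3 in CIA mice, so Cd68 passed the filter of 25 UPM only through the group in which it was higher, and its log2 difference of 1.68 ± 1.03 (SE) is a description. Without S7 the difference was 2.79, among libraries with the suffix 2CIA it was 2.57 ± 1.78 (SE), and without S2 or S6 the gene no longer passed the filter. Monocyte markers, a list of 8 genes, summed to 14070, 13796 and 4735 UPM in S2, S6 and S7 and to 382 to 3076 in the 5 healthy blood libraries, and their part in the Cd68 values was not tested. Mrc1 was listed in 1 blood mouse, H4, at 2.26 (two-sided exact permutation p = 1.0, where the smallest possible is 0.0286). The 3 C1q chains and Adgre1 gave no test, since they were listed at 0 in all mice.

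In lymph node, Apoe was at 76.96, 60.5, 0 and 67.9 UPM in H3, H4, H6 and H7 and at 98.5, 23.7 and 33.1 in S1, S2 and S7. The CIA values lay within or just above the healthy ones. The difference was 0.22 ± 0.66 (SE, n = 3 and 4; 95% interval -1.17 to 1.60), with an adjusted p of 0.999 (limma), where 0.0197% of 5064 genes were called. Among libraries with the suffix 2CIA it was -0.38 ± 0.71 (SE). Cd68 was listed in H3 alone, at 13.1 (two-sided exact permutation p = 1.0).

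**Figure D2:**
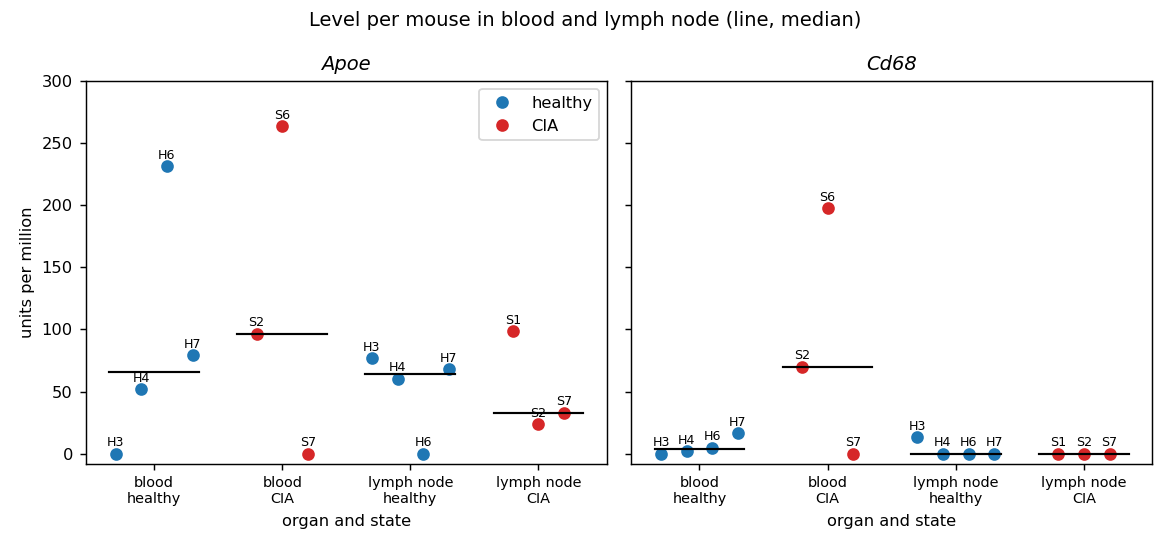
Level of Apoe (left) and Cd68 (right) in UPM for each mouse of blood and lymph node, healthy in blue and CIA in red, with the median as a line. Apoe of the 2 states overlaps in both organs, and Cd68 in blood reaches 70.1 and 197.7 in S2 and S6 but 0 in S7.

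Between the organs, Apoe did not differ beyond its spread in either state. Lymph node minus blood was -0.74 ± 0.88 (SE, n = 4 and 4; adjusted p = 0.741, limma, 0.0401% of 4990 genes called) in healthy mice and -0.33 ± 1.13 (SE, n = 3 and 3; adjusted p = 0.878, limma, 0.727% of 4678 genes called) in CIA mice. With the mouse as a block, the calls over all genes went from 2 to 9 in healthy mice and from 34 to 72 in CIA mice. Of the 7 genes only Apoe was at the filter in both organs, and it was not called. Cd68 was listed at 0 in the lymph node of all 3 CIA mice and passed the filter there only through the blood of S2 and S6, so no test of it is given. In healthy mice, Cd68 gave a two-sided exact permutation p of 0.371 over 70 splits. The interaction of organ and state was 0.34 ± 1.49 (SE) for Apoe, with an adjusted p of 0.969 (limma); 0 of 4858 genes passed, and 8.42% had an unadjusted p under 0.05.

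Of 24 further macrophage genes in the table, 5 were tested in blood and 2 in lymph node, and 0 were called in either direction between the states. Over all genes 0.0625% were called in blood and 0.0197% in lymph node, so 0 calls do not set a short list apart. Likewise 0 were called in the complement list (8 and 5 tested), lipid handling (7 and 3) and phagocytosis and lysosome genes (19 and 10). In blood, 2 of the 5 macrophage and 5 of the 8 complement genes reached the filter of 25 UPM in 1 state only. So did 2 of the 7 lipid handling and 4 of the 19 phagocytosis genes, and in lymph node 1 of the 3 lipid handling genes. For these genes the lack of a call is a description, and no median of the lists is given. Monocyte markers, as given above, were higher in each CIA blood library, and neutrophil markers in S2 and S7. The 8 neutrophil markers summed to 63392, 5235 and 73245 UPM in S2, S6 and S7 and to 1363 to 5330 in the 5 healthy blood libraries, so that S6 lay within the healthy range, and the part of either marker list in the phagocytosis values was not tested. Of the most abundant genes of the phagocytosis list, Ctsb, a lysosomal protease, was at 2.22 ± 0.82 (adjusted p = 0.407, limma) and Fcer1g at 1.61 ± 0.64 (0.432). Cd63, a tetraspanin of lysosomes, was at 0 to 25.6 UPM in healthy and at 34.5, 246.5 and 0 in the CIA mice S2, S6 and S7, and since it reached the filter through the CIA mice alone, no test of it is given. Cd14, a receptor of bacterial lipopolysaccharide, was at 2.08 ± 1.07 (0.496) in blood, Npc2, a cholesterol carrier of lysosomes, at 0.53 ± 0.68 (0.792), Calr, the chaperone calreticulin, at -1.93 ± 0.85 (0.473) and Cd55, an inhibitor of complement, at -1.43 ± 0.92 (0.584). Between the organs of CIA mice, 3 of 18 phagocytosis genes were lower in lymph node and 0 higher, against 0.684% and 0.0428% of all genes. In 10 of the 18 the mean reached the filter in both organs, and 2 of the 3 were among these: Fcer1g, the signalling chain of Fc receptors (-4.16 ± 0.60, adjusted p = 0.00599, limma), and Tyrobp, the adaptor DAP12 (-3.04 ± 0.60, adjusted p = 0.0413, limma). Fcer1g was at 741, 751.7 and 416.5 UPM in the blood of S2, S6 and S7 and at 38.2, 13.7 and 23.9 in the lymph node of S1, S2 and S7. The third, Clec7a, the beta-glucan receptor dectin-1, was at 467, 209.9 and 219 in blood and at 10.05, 0 and 0 in lymph node. It reached the filter through blood alone, so its call is a description. Beside these, the monocyte markers summed to 792 to 1650 UPM and the neutrophil markers to 87.1 to 1957 in the 4 lymph node libraries of CIA mice, below the blood values of the same state, and their part was not tested. Ctss, a lysosomal protease and the most abundant of the other macrophage genes, was at 6772 UPM in the lung of H6, 4307 in that of S1, and 240.3 and 4439 in the muscle of H6 and S1. Fabp4, a fatty acid carrier, was highest in the muscle of S1 (3314) and the joint of H3 (1979), Hmox1, haem oxygenase, in the lung of H6 (1929) and of S1 (1855), and Serping1, the C1 inhibitor, in the joint of H3 (624.4) and the muscle of S1 (449.1).

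Barcodes were examined next, to find whether the genes lay in the same profiles. The share of barcodes that listed C1qc was highest in the lung of H6 (78.6%), the joint of H3 (45.6%) and the muscle of S1 (42.6%), and Apoe was listed in 9.49% to 100% of barcodes where it was above 0. Because smoothing adds up a cell and its neighbours, a barcode that lists a gene need not have come from a cell that made it.

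**Figure D3:**
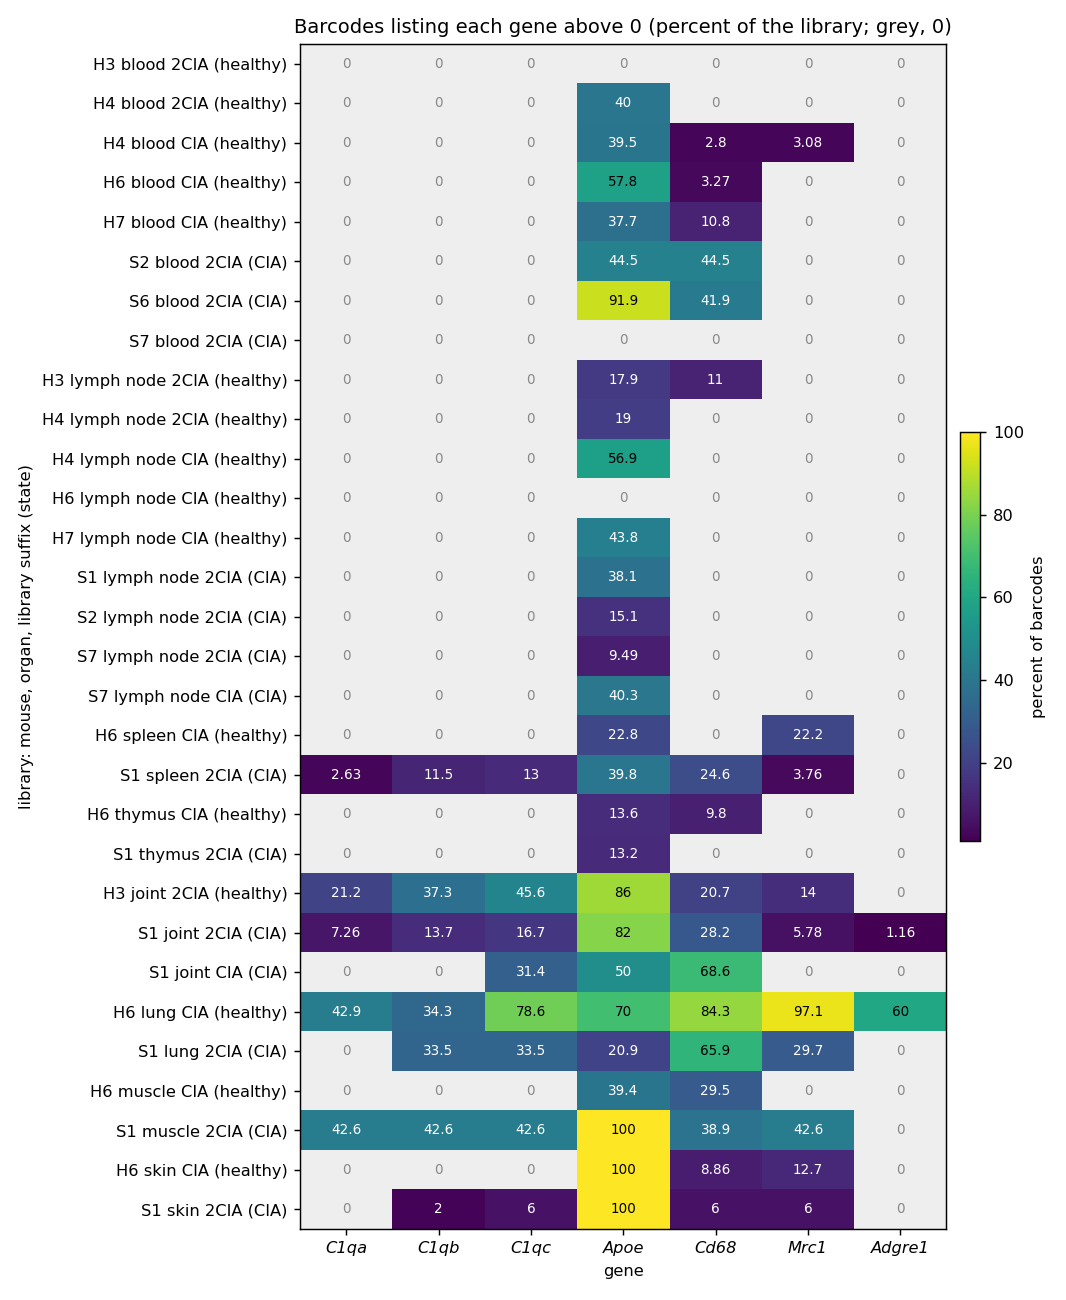
Percent of a library's barcodes that list each of the 7 genes above 0 (columns, genes; rows, the 30 libraries), with grey for 0. Apoe is listed in every barcode of the skin libraries and of the muscle library of S1, whereas C1qc reaches 78.6% in the lung of H6.

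In the muscle of S1, 23 of 54 barcodes listed all 3 C1q chains and the other 31 listed no chain. These 23 barcodes held 45.02% of the units of the library, 80.4% of the Apoe units and 100% of the Cd68 and Mrc1 units. Apoe was at 3292 UPM in them and 657.7 in the rest. The other macrophage genes summed to 11373 against 760.9, with 9 of 13 higher in the 23 barcodes against 44.96% of all genes. Monocyte markers summed to 20110 against 1401, but only 3 of 6 were higher. Skeletal muscle markers were also higher in the 23 barcodes, at 9357 against 421.3 with 7 of 7 higher. Neutrophil markers went the other way, at 1307 against 32812, as did fibroblast markers, at 2694 against 21240, and endothelial markers, at 0 against 786.7. The part of these markers was not tested. Over the 16 distinct profiles of this library, Spearman's rho lay between 0.75 and 0.98 for every pair of the 6 genes listed.

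In the joint of H3, 128 of 193 barcodes listed at least 1 chain and 25 listed all 3. The 128 held 100% of the Cd68 and Mrc1 units with 73.1% of all units, but Apoe was lower in them, at 317.1 UPM against 781.7. The rho over 75 distinct profiles was 0.44 to 0.65 between chains, 0.64 to 0.75 between a chain and Cd68, and -0.27 to -0.01 between a chain and Apoe. In the larger joint library of S1, 134 of 606 barcodes listed a chain, and Apoe was higher in them, at 595.3 against 309.3. There rho over 248 profiles was 0.57 to 0.67 between chains and 0.19 to 0.44 between a chain and Apoe. The other macrophage genes summed to 7740 in the 134 barcodes against 1799, with 10 of 11 higher against 60.3% of all genes, and neutrophil markers to 33322 against 164930. In the joint of H3 neutrophil markers went the other way, at 80363 in C1q-listing barcodes and 12654 in the others. The other macrophage genes there summed to 2440 against 1160, with 7 of 11 higher against 46.2% of all genes. Fibroblast markers of that library were at 17093 against 8979 with 7 of 7 higher, and endothelial markers at 207.2 against 694.6 with 0 of 4 higher. The part of these markers was not tested.

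In the lung of H6, Apoe and 2 of the chains varied together and Mrc1 and Adgre1 varied against Apoe. Over 29 distinct profiles, rho with Apoe was 0.88 for C1qa and 0.78 for C1qc, and it was -0.57 for Mrc1 and -0.77 for Adgre1, while Mrc1 and Adgre1 had a rho of 0.66. C1qb stood apart from C1qa, with a rho of -0.13. In the 55 C1q-listing barcodes, Apoe was at 453.7 UPM against 18.3 in the other 15, and Mrc1 at 513.4 against 657.9. The other macrophage genes summed to 11095 in the C1q-listing barcodes and 11348 in the others, although 6 of 8 were higher in the former, against 61.0% of all genes, and the median log2 difference was 0.81 against 0.44 for all genes. Monocyte markers summed to 19630 and 29056, epithelial markers to 14045 and 49431 and fibroblast markers to 59.8 and 794.9, and their part in these contrasts was not tested. In the lung of S1, C1qb and C1qc had a rho of 0.82 over 67 profiles, each had 0.69 to 0.71 with Mrc1, and the C1q-listing barcodes, 71 of 182, held 89.0% of the Mrc1 units. The other macrophage genes summed to 10830 in these 71 barcodes against 6749, with 6 of 9 higher against 49.1% of all genes. Epithelial markers summed to 5384 against 481, neutrophil markers to 21817 against 14663 and monocyte markers to 19301 against 18716, with 2 of 8 monocyte markers higher. The part of these markers was not tested. Profiles of one library share its depth and smoothing, so the values of rho are descriptions.

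**Figure D4:**
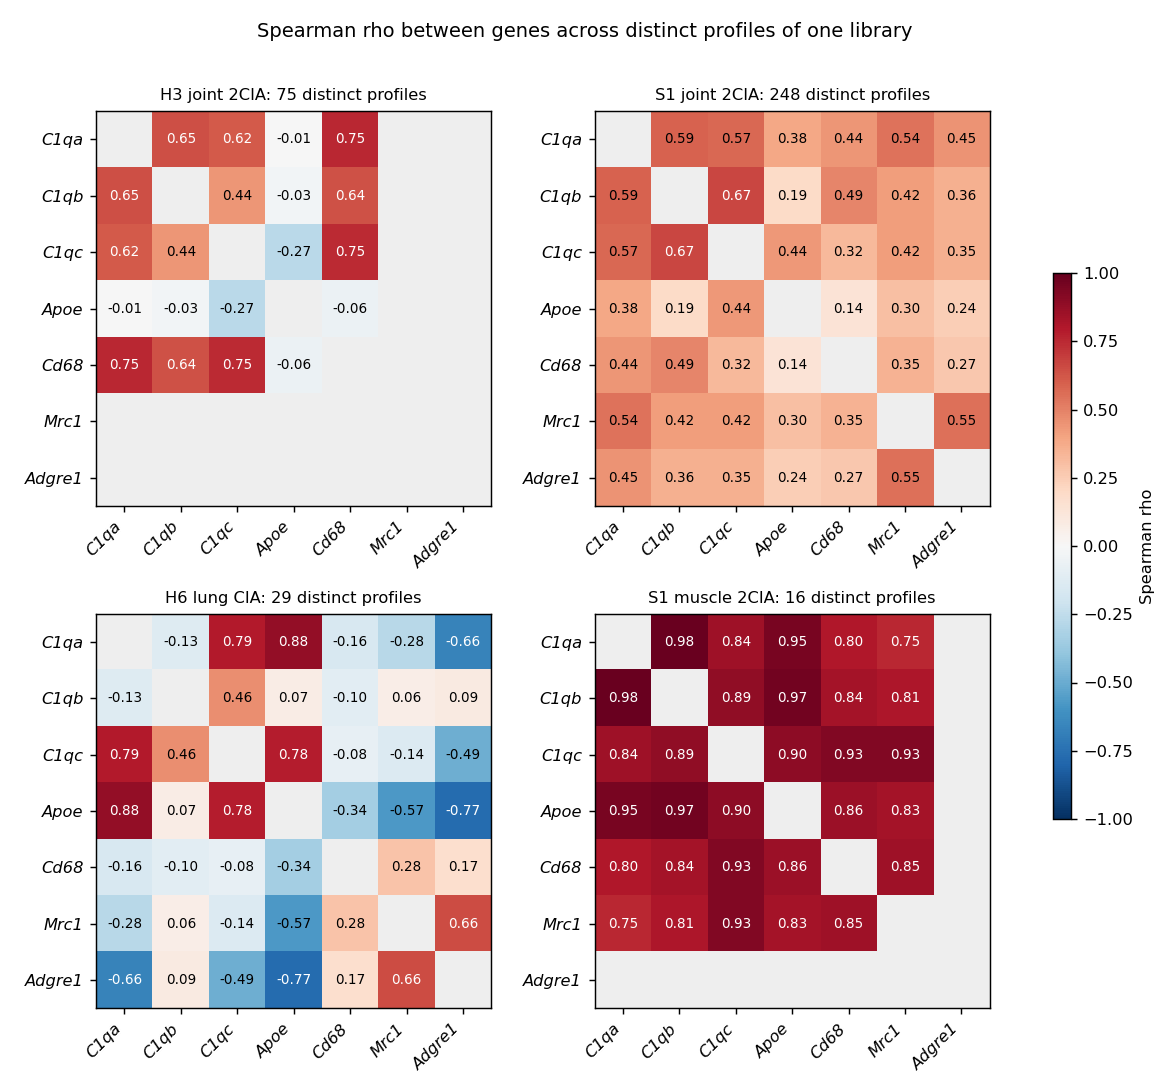
Spearman's rho (colour, -1 to 1) between the genes across distinct profiles of the joint of H3, a joint library of S1, the lung of H6 and the muscle of S1, with grey where fewer than 5 profiles list a gene. All pairs are positive in the muscle of S1, and Apoe is negative with Mrc1 and Adgre1 in the lung of H6.

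In spleen and skin the chains seldom lay in the same barcodes. In the spleen of S1, 141 of 532 barcodes listed a chain, of which 138 listed 1 chain, 3 listed 2 and 0 listed all 3, and rho between chains was -0.08 to -0.07. As in joint and muscle, the other macrophage genes were higher in the C1q-listing barcodes of the spleen, at 1247 against 746.6 UPM with 5 of 5 higher, against 52.3% of all genes. Monocyte markers were at 9484 against 4622, and neutrophil markers at 121640 against 89594 with 7 of 8 higher. Red cell markers were lower, at 47430 against 107510 with 0 of 6 higher, and B cell markers at 889.8 against 1567. The part of these markers was not tested. In the skin of S1, the 12 C1q-listing barcodes held 100% of the Cd68 and Mrc1 units but 2.45% of the Apoe units, with Apoe at 510.4 UPM against 1639 in the other 138. The Cd68 and Mrc1 shares rest on a single smoothed profile, since C1qc, Cd68 and Mrc1 were each at 1 unit in the same 9 barcodes, which shared 1 distinct profile. The other macrophage genes summed to 1134 against 497.1 in skin, with 3 of 7 higher against 38.9% of all genes. Fibroblast markers were higher in the 12 barcodes, at 29850 against 15933 with 7 of 7 higher, and monocyte markers were at 841.2 against 180.4. Keratinocyte markers were lower, at 293 against 1441 with 1 of 6 higher. The lipid handling list was also lower in the 12 barcodes, at 1711 against 4412. The part of these markers in the skin contrast was not tested. Apoc1, an apolipoprotein gene next to Apoe, was at 1472 and 1948 UPM in the skin of H6 and S1 and at most 64.4 in any other mouse and organ.

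**Figure D5:**
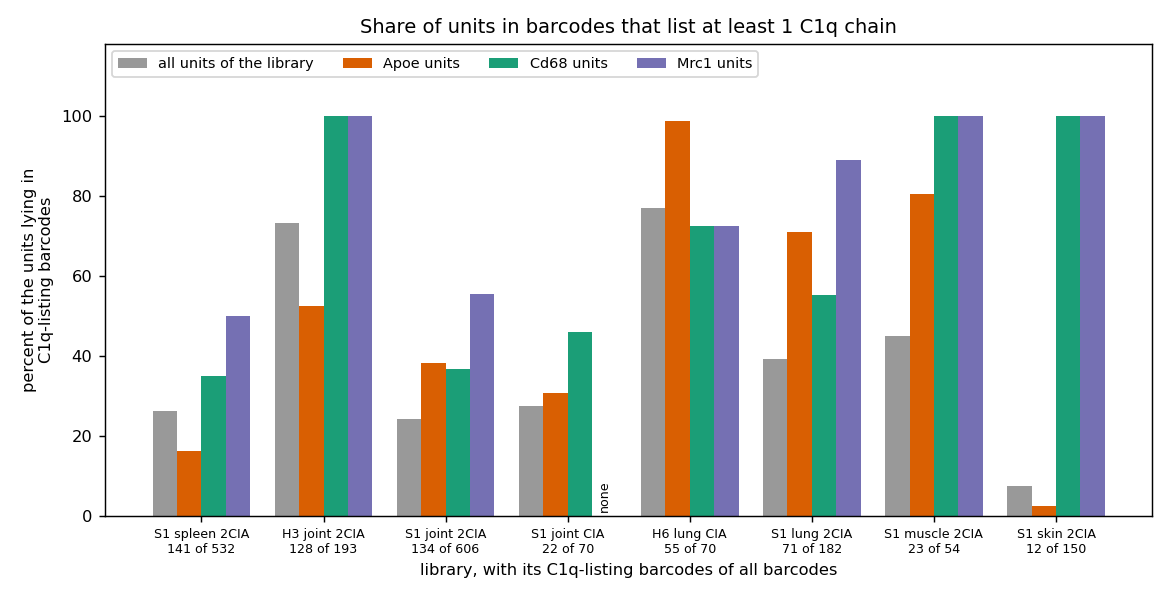
Percent of the units of Apoe, Cd68 and Mrc1, and of all units, that lie in barcodes listing at least 1 C1q chain, for the 8 libraries with C1q (number of such barcodes under each). Mrc1 lies above the share of all units in 6 of the 7 libraries that list it, and Apoe falls below it in the joint of H3, the spleen and the skin.

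Over the 8 libraries, the C1q-listing barcodes held a median of 33.3% of all units, 45.3% of the Apoe units (2.45% to 98.8%) and 63.9% of the Cd68 units (34.9% to 100%), and over the 7 libraries with Mrc1 a median of 89.0% of its units (50.0% to 100%). When all 3 chains were required, in 4 libraries, these medians were 14.5% of all units, 17.5% for Apoe, 37.8% for Cd68 and 57.9% for Mrc1. Over the 7 libraries with at least 20 C1q-listing barcodes (added after seeing the data), they were 39.2% of all units, 52.5% for Apoe and 55.2% for Cd68. For Mrc1, above 0 in 6 of these, the median was 80.7%. The lung of H6 was the exception for Mrc1 and Cd68, at 72.4% and 72.5% against 77.1% of all units.

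Over the 26 mouse and organ pairs, C1qb and C1qc had a Pearson r of 0.99 on the log2 scale, C1qa had 0.93 with C1qb and 0.91 with C1qc, and the mean of the chains had 0.84 with Mrc1, 0.66 with Cd68, 0.55 with Adgre1 and 0.47 with Apoe. The pairs share organs and libraries, and most are at 0 for C1q. The 5 genes whose pattern was most like C1q, among 5223, were Lpl, lipoprotein lipase (r = 0.85), Mrc1 (0.84), Ogn, the matrix protein osteoglycin (0.82), Sparcl1, a matrix-associated protein (0.82) and Mgp, matrix Gla protein (0.80). For Apoe they were Cltb, a clathrin light chain (0.81), Zswim6 (0.80), Plpp3, a lipid phosphatase (0.79), Cd63 (0.78), and Mt1, metallothionein (0.78). Cd68 was closest to Sdcbp (0.90), Picalm (0.84) and Metrnl (0.82), Mrc1 to C1qc (0.85), C1qb (0.83) and Lpl (0.81), and Adgre1 to a row without a symbol (0.83), Mrc1 (0.71) and Ear2, an eosinophil-associated ribonuclease (0.71). Lpl was at 751.7 UPM in the lung of H6 and 605 in the muscle of S1, and Ogn at 1239 in the muscle of S1.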

How the data were processed

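The authors aligned Seq-Well reads to mouse GRCm38 with STAR and obtained UMI counts from the Drop-seq tools. Cells with few reads, transcripts or genes were dropped, and the pilot matrix was then smoothed over neighbouring cells. An upper limit on transcripts, set against doublets, was stated for the main analysis of the study and not for this matrix, and no doublet caller was run here. The submitters' processing notes list GRCh38 and mm9 as builds. The deposited values are a smoothed signal of whole numbers. They were therefore not fitted with a count model. Symbols came from RefSeq (21404 of 23013 rows), and rows above 0 without a symbol held 3.39% of units. The 8282 barcodes held 4590 distinct profiles, and 13 barcode sequences occurred in more than 1 library.

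Units were summed per mouse and organ (26 pairs). Printed levels are summed signal on a per-million scale (UPM). Differences were taken after trimmed-mean scaling (30% and 5% trimmed) as log2(value + 10), which understates changes of low genes. Genes averaging 25 UPM or more were tested with limma 3.58.1 (R 4.3.3), two-sided, with Benjamini-Hochberg adjustment over all genes, and members below that with an exact permutation test over mice. On simulated mice, genes changed by 2 on the log2 scale were recovered in 0% of 200 cases in blood and 72.0% in lymph node. Alternatives were other scalings, a pseudocount of 1, no filter, no trend, distinct profiles, suffix 2CIA alone, each library alone, each mouse left out and a replicate block, and, added after seeing the data, genes in under 10% of a library's barcodes set to 0, the joint of suffix 2CIA alone, libraries of at least 100 barcodes, and libraries of at least 20 C1q-listing barcodes.

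The 7 genes and all lists were chosen with earlier results of these data known. Named genes were the members, the genes most like them by Pearson r (5 for C1q and Apoe, 3 for the others), and the called genes and the 3 most abundant of each of 4 pathway lists. Blood and lymph node samples of a number come from the same mouse, and their deviations from the group means correlated at -0.28 to 0.17. Marker lists were read as sums only.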

Additional observations from a re-analysis of the deposited data

Results flagged for a closer look

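In each of 2 of the 5 groups of 4 mice in which a gene varied, 1 mouse stood far from the other mice. Cd68 in lymph node of healthy mice was at 13.1 UPM in H3 and listed at 0 in H4, H6 and H7. Mrc1 in blood of healthy mice was at 2.26 in H4 and listed at 0 in H3, H6 and H7. A group of which all values but 1 are 0 always meets this criterion, and chance alone meets it in about 1 in 20 groups of continuous values.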

How the results depend on the processing

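Each fit tested 1 to 3 of the 7 genes, and 0 of those tested were called in the 5 tests under any alternative run. The C1q chains and Adgre1 were listed at 0 in all blood and lymph node mice, so no fit could call them. Calls over all genes without a block ran from 0 to 30 in blood and 0 to 9 in lymph node. They ran from 0 to 84 for healthy and 6 to 836 for CIA lymph node minus blood, and were 0 in the interaction. The sign of Apoe, which passed in no test, changed in each of the 5 tests. In blood it was 0.13 with total-only scaling, 1.35 with suffix 2CIA alone and 0.19 without the libraries under 100 barcodes (added after seeing the data), and leaving out each mouse gave -1.15 to 0.99. In lymph node it was -0.38 with suffix 2CIA alone and -0.53 to 0.56 leaving out each mouse. For lymph node minus blood it was 0.86 with suffix 2CIA alone and -1.91 to 0.53 leaving out each mouse in healthy mice, and 0.53 with a pseudocount of 1 and -1.57 to 0.80 leaving out each mouse in CIA mice. The interaction was -1.64 with suffix 2CIA alone and -0.98 to 1.52 leaving out each mouse. Cd68 in blood was at 1.54 to 2.79 leaving out each mouse, in the 5 such fits in which it was tested. Apoe changed sign in blood without H6 or S7, in lymph node without H6 or S1, between the organs without H6 (healthy) or without S2 or S6 (CIA), and in the interaction without H6, S1 or S7. The cause was not tested.

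In joint, distinct profiles gave 0.30 for C1qa, 0.77 for C1qb, -0.36 for C1qc, -0.77 for Mrc1, 1.38 for Cd68 and -0.093 for Apoe, and total-only scaling gave -0.28 for Apoe. Distinct profiles also took Cd68 past 2-fold in muscle (1.32) and Cd68 and Mrc1 past it in skin (both -1.04), and Cd68 in lung to -0.90. Cd68 in thymus, listed in H6 alone, was at -0.90, at -1.05 with distinct profiles and at -3.26 with a pseudocount of 1. In skin Mrc1 was at -1.32 with a pseudocount of 1. In spleen distinct profiles gave -0.56 for Apoe. With genes found in under 10% of a library's barcodes set to 0 (added after seeing the data), 27 in place of 33 pairs of gene and organ were above 0. C1qa and Mrc1 of the joint of S1 became 0, at -1.75 and -2.50, as did Mrc1 of the spleen of S1 (-2.01) and of the skin of S1 (-1.46), all C1q in skin, C1qa in spleen, Adgre1 in joint and Cd68 in skin and thymus, and Cd68 in lung was at -0.99. With all 3 chains required, over 4 libraries, the C1q-listing barcodes held a median of 14.5% of all units, 17.5% of Apoe, 37.8% of Cd68 and 57.9% of Mrc1.

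With the replicate block, Cd68 was at 0.54 and Apoe at -2.23 in blood. Apoe was at -0.74 and -0.11 for lymph node minus blood in healthy and CIA mice, and at 0.58 in the interaction. Of the 7 genes, 1 or 2 were tested in each of these fits, and 0 of those tested were called. In blood, where equal numbers mark different animals, the block raised the calls over all genes from 3 to 537, and the deviations of the pairs numbered 6 and 7 correlated at 0.24 and -0.14.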
